A study of Mus musculus with 6 samples.

Results

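The respiratory chain was followed through its subunit genes. The members were the protein-coding genes of the deposited expression table whose symbols name a subunit of complexes I to IV or of the ATP synthase, namely Nduf genes of the a, b, c, s and v series, Sdha to Sdhd, Uqcr genes, Cox4 to Cox8 genes, Atp5 genes and the mitochondrial mt-Nd, mt-Co, mt-Atp and mt-Cytb genes. The rule found 97 genes among the 35275 of the table, of which 84 are nuclear and 13 lie in the mitochondrial genome. The cells, ID8-KMF, are a mouse line of ovarian cancer that was obtained from ID8 cells, of the C57Bl6/J strain, passaged in vivo. The 3 GFP-Rgnef libraries came from Rgnef-/- cells that carried GFP-Rgnef in a lentivirus, and the 3 knockout libraries from Rgnef-/- cells without it. Rgnef, whose gene is Arhgef28, is a guanine nucleotide exchange factor for RhoA. All cells grew subconfluent in 2 dimensions on dishes seeded with Matrigel, so both groups share the knockout, the line and the matrix, and the lentivirus and the GFP tag cannot be told apart from Rgnef itself. Nothing in the labels says that replicates were separate cultures, or how many clones stand behind each group, so the p-values speak of the spread among these 6 libraries, which may be technical.

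The respiratory chain moves electrons from NADH through complex I, or from succinate through complex II, to complex III and on to oxygen at complex IV. Complexes I, III and IV pump protons across the inner mitochondrial membrane, and the ATP synthase, also called complex V, lets them return while it makes ATP. Complex II is built from nuclear genes alone, whereas the other complexes join nuclear subunits, imported from the cytosol, to a few core subunits that are transcribed and translated inside the mitochondrion.

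Values are FPKM, fragments per kilobase of transcript scaled to the depth of the library, and differences are GFP-Rgnef minus knockout in log2(FPKM + 1), where the pseudocount of 1 makes the change of low genes look smaller. Genes averaging 0.5 FPKM or more over the libraries were tested with limma, and a gene was called when its adjusted p over all of them was below 0.05. FPKM steps implied 15898965 to 17977069 reads per library. Arhgef28 averaged 52.7 ± 3.93 FPKM in the GFP-Rgnef libraries and 0.12 ± 0.0123 FPKM in the knockout libraries (SD, n = 3 each), as labelled. Of 10 markers of ovarian surface epithelium, Krt8, Krt18, Krt19, Wt1 and Msln were at 124 FPKM or more in every library, Upk1b, Upk3b, Cdh1 and Cdh2 were lower in at least some, and Krt7 reached at most 0.307 FPKM. Krt18 was called higher with a difference of 0.51 and Cdh2 lower with -2.03, while Upk3b, with 92.3 ± 43.1 FPKM with GFP-Rgnef and 251 ± 117 FPKM in the knockout (SD, n = 3 each), had a difference of -1.43 that was not called (limma adjusted p = 0.0878). Leukocyte markers, 8 genes, summed to 2.24 to 3.49 FPKM with GFP-Rgnef and 2.54 to 3.89 FPKM in the knockout, with Cd3e and Adgre1 at 0. Of 6 endothelial markers, Kdr was at 0 in all libraries and Cdh5 at 0 in 5, and the list's sum of 95.7 to 108 FPKM with GFP-Rgnef and 85.9 to 146 FPKM in the knockout was nearly all Tek. The stromal list of 6 genes summed to 47.1 to 71.2 FPKM with GFP-Rgnef and 33.8 to 44.2 FPKM in the knockout, mostly Dcn. Of the 3 stromal genes tested, Dcn was called higher with a difference of 0.83, while Col1a1 (-1.20, limma adjusted p = 0.051) and Pdgfra (-0.49) lay lower in every GFP-Rgnef library and were not called, and Lum and Pdgfrb reached at most 0.132 FPKM. The part of these marker differences in the results on subunit genes was not tested. The libraries numbered 3 of both groups stood away from the others on the second principal component, which held 25.2% of the variance, and counts below are given also without them.

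Nuclear subunit genes were mostly higher in the GFP-Rgnef cells, by a small amount. The filter on low values left out 7 of the 84 nuclear members, all of them alternative isoforms (Cox4i2, Cox6a2, Cox6b2, Cox7b2, Cox8b, Cox8c and Ndufa4l2), and 1 mitochondrial member, mt-Nd4l. Of the 77 nuclear members tested, 65 had a positive difference and 12 a negative one, with a median of 0.15, a fold of 1.11, against a median of 0.02 over all 11500 tested genes. Calls numbered 11 higher, 14.3% of the members where 5.34% of all tested genes were called higher, and 3 lower, 3.9% of the members where 8.04% of all tested genes were called lower. In 37 members all GFP-Rgnef libraries lay above all knockout libraries, and in 4 all lay below, against 16.7% of all tested genes for each of these 2 patterns. The summed level of the nuclear members was 13191 to 13787 FPKM in the GFP-Rgnef libraries and 11689.6 to 12671 FPKM in the knockout libraries. These groups did not overlap, but neither did the sums over all tested genes. Those were 642184 to 647109 FPKM with GFP-Rgnef and 623302 to 641224 FPKM in the knockout. In bulk RNA, fewer cells with a transcript and less of it per cell cannot be told apart. Each of the 11 genes called higher kept its sign in all 20 fits run, but the number of calls rested on particular libraries. Leaving out 1 library gave a count higher of 2 for GFP-Rgnef 1, 1 for GFP-Rgnef 2, 10 for GFP-Rgnef 3, 2 for knockout 1, 2 for knockout 2 and 11 for knockout 3. Of all 11500 tested genes, 305, 198 and 530 were higher without GFP-Rgnef 1, 2 and 3. Without knockout 1, 2 and 3 these were 378, 214 and 578. The share of members called higher was thus close to that of all tested genes without GFP-Rgnef 1 or 2 or knockout 1 or 2. Lower were 512, 455 and 839 of all tested genes without GFP-Rgnef 1, 2 and 3. Without knockout 1, 2 and 3 they were 592, 492 and 850. The count of members lower was 2 without GFP-Rgnef 3, 1 without knockout 1 and 0 without any other library. Equal counts did not mean the same genes: of the 14 calls in both directions, 2, 1 and 10 were kept without GFP-Rgnef 1, 2 and 3, and 3, 2 and 7 without knockout 1, 2 and 3. Without the libraries numbered 3 of both groups, 24 were higher and 4 lower, all 14 among them. Calls over all tested genes rose as well in that fit, to 1048 higher and 1273 lower from 614 and 925.

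**Figure D1:**
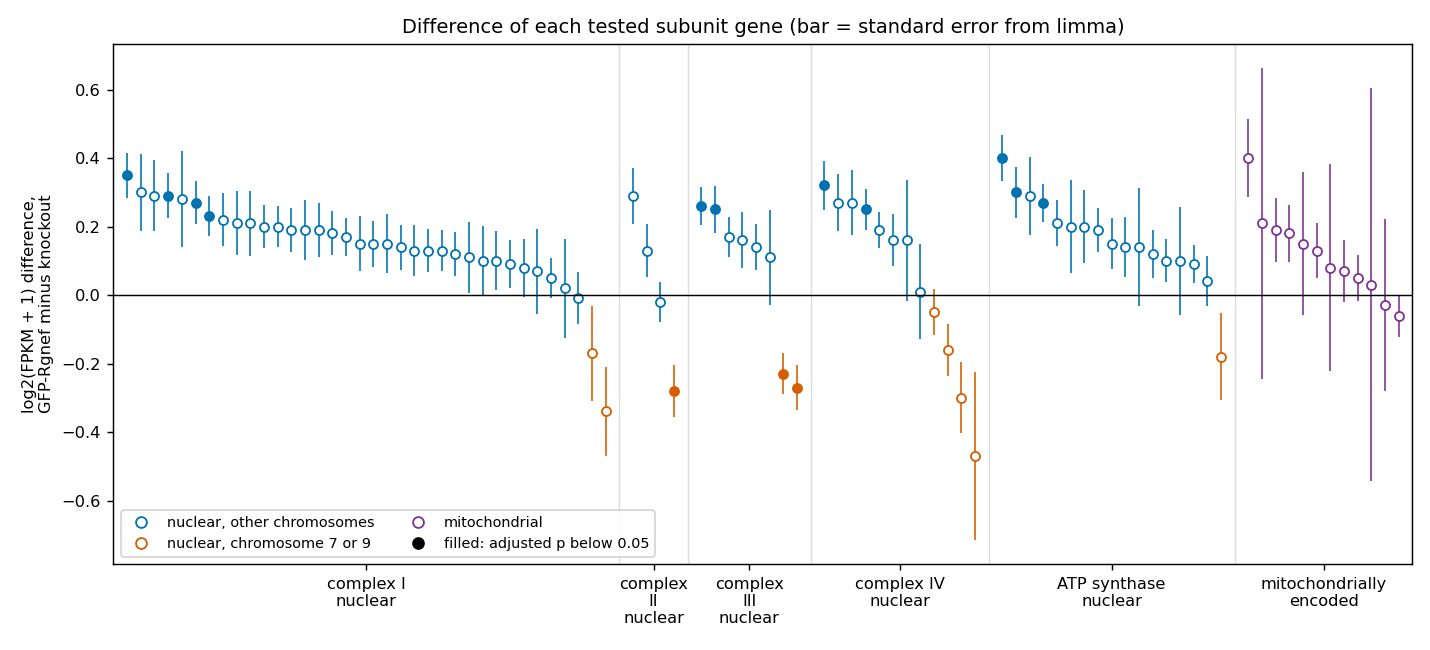
Difference in log2(FPKM + 1), GFP-Rgnef minus knockout, of each tested subunit gene (y axis), sorted within its complex; bars are limma standard errors and filled circles are genes with adjusted p below 0.05. Most nuclear genes lie above 0 in each of complexes I, III, IV and V, and the 10 on chromosomes 7 and 9 lie below 0.

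In complex I, the NADH dehydrogenase and largest of the complexes, 33 of 36 tested members had a positive difference. Of these 36, 4 were called higher and 0 lower, and the median was 0.15. Over all tested genes 6116 of 11500 had a positive difference, 5.34% were called higher and 8.04% lower. Counts of calls this small, here and in the complexes below, are a description and no result about a complex. Ndufb7, an accessory subunit, had 26.7, 26.7 and 27.5 FPKM in the GFP-Rgnef libraries, against 21.3, 21.2 and 20.2 FPKM in the knockout libraries. The groups were well apart, each within a narrow range, and the difference was 0.35 (SE 0.0659, limma adjusted p = 0.0121). Ndufv1, which binds NADH and the flavin that takes its electrons, had 165, 169.8 and 173 FPKM with GFP-Rgnef, against 138, 129.5 and 146 FPKM in the knockout, a difference of 0.29 (limma adjusted p = 0.0234). All GFP-Rgnef values were above all knockout values. Ndufs7, an iron-sulfur subunit close to the quinone site, had 135, 144 and 135 FPKM with GFP-Rgnef, against 118, 115 and 118 FPKM in the knockout, a difference of 0.23 (limma adjusted p = 0.0353), which was not called with TPM scaling. Ndufa2, a small accessory subunit, had 68.4, 69.9 and 66.9 FPKM with GFP-Rgnef, against 54.9, 59.2 and 55.3 FPKM in the knockout, a difference of 0.27 (limma adjusted p = 0.0255). Neither gene's groups overlapped. With 1 library left out, Ndufv1 was called in 2 of 6 fits, and Ndufs7 and Ndufa2 each in 1 of 6. The core subunits Ndufs1 and Ndufs3 had differences of 0.13 and 0.05 and were not called. The most abundant of the complex I symbols was Ndufa4, whose protein is now assigned to complex IV, with 289, 291 and 359 FPKM in the GFP-Rgnef libraries and 227, 267 and 269 FPKM in the knockout libraries. Its groups did not overlap, but its difference of 0.29 missed the threshold (limma adjusted p = 0.105). Negative differences were found for Ndufc2 (-0.34) and Ndufa3 (-0.17), both on chromosome 7, and for Ndufv2 (-0.01), none of them called.

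Complex II, succinate dehydrogenase, went both ways. Sdhd, one of its membrane anchors, had 91.7, 99.9 and 84.9 FPKM in the GFP-Rgnef libraries, against 108, 118 and 109 FPKM in the knockout libraries. It was lower in every GFP-Rgnef library, with a difference of -0.28 (SE 0.0765, limma adjusted p = 0.0489). The call was marginal: it held in 0 of the 6 fits that left out 1 library (limma adjusted p from 0.0622 to 0.167) and was lost at 0.0501 to 0.0505 with a pseudocount of 0.01, a filter of 5 FPKM, library median centring or the mitochondrial genes outside the scaling, and at 0.0828 without a filter and 0.0823 without limma's trend. Sdhd lies on chromosome 9, where all tested genes had a median difference of -0.28. With each chromosome's median deviation removed from each library, the difference of Sdhd was 0.01 (limma adjusted p = 0.937). Sdhb, the iron-sulfur subunit, had 55.8, 51.5 and 50.9 FPKM with GFP-Rgnef, against 39.3, 42.9 and 46.9 FPKM in the knockout. Its groups did not overlap, and its difference of 0.29 just missed the threshold (limma adjusted p = 0.0523). Sdha, the flavin-bearing catalytic subunit and the most abundant of the complex, averaged 399 ± 14.6 FPKM with GFP-Rgnef and 404 ± 11.4 FPKM in the knockout (SD, n = 3 each), a difference of -0.02 with overlapping groups. The other anchor, Sdhc, had a difference of 0.13 and was not called.

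Complex III, the cytochrome bc1 complex, held calls in both directions. Uqcrq, a small subunit next to the quinone site, had 212, 210.3 and 201 FPKM in the GFP-Rgnef libraries, against 169, 173 and 178 FPKM in the knockout libraries, a difference of 0.26 (limma adjusted p = 0.0218). Uqcr11, another small subunit, had 167, 159 and 145 FPKM with GFP-Rgnef, against 132, 129.6 and 133 FPKM in the knockout, a difference of 0.25 (limma adjusted p = 0.0479). For both genes every GFP-Rgnef library was above every knockout library. The core subunits, large proteins that face the matrix, were the ones called lower. Uqcrc1 had 93.5, 93.6 and 83.8 FPKM with GFP-Rgnef, against 111, 109 and 106 FPKM in the knockout, a difference of -0.27 (limma adjusted p = 0.0345). Uqcrc2 had 153, 157 and 161 FPKM with GFP-Rgnef, against 176, 191 and 187 FPKM in the knockout, a difference of -0.23 (limma adjusted p = 0.0395). With 1 library left out, Uqcrc1 was called in 0 of 6 fits, Uqcrc2 and Uqcrq each in 2 of 6 and Uqcr11 in 1 of 6. The call of Uqcr11 was also lost with TPM scaling, library median centring and voom on recovered reads. Uqcrc1 lies on chromosome 9 and Uqcrc2 on chromosome 7, where all tested genes had median differences of -0.28 and -0.24. The Rieske iron-sulfur protein gene Uqcrfs1 had a difference of 0.17 without overlap and was not called (limma adjusted p = 0.0885).

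In complex IV, cytochrome c oxidase, 2 of 12 tested nuclear members were called higher and 0 lower, with a median of 0.16. The shares over all tested genes were 5.34% higher and 8.04% lower. Cox4i1, the common form of the subunit that takes part in the regulation of the enzyme by ATP, had 303, 311 and 327 FPKM in the GFP-Rgnef libraries, against 234, 251 and 271 FPKM in the knockout libraries, a difference of 0.32 (SE 0.0706, limma adjusted p = 0.0233). Cox8a, the smallest nuclear subunit in its common form, had 536, 553 and 507 FPKM with GFP-Rgnef, against 444, 466 and 435 FPKM in the knockout, a difference of 0.25 (limma adjusted p = 0.0342), which was not called with TPM scaling. Both genes were higher in every GFP-Rgnef library, but each was called in only 1 of the 6 fits that left out 1 library. Cox6a1 was as abundant as Cox8a, with a mean of 535 ± 28.9 FPKM with GFP-Rgnef and 445 ± 45.7 FPKM in the knockout (SD, n = 3 each), and its difference of 0.27 was not called (limma adjusted p = 0.0711). Cox5b, at 0.19, fell just short as well (limma adjusted p = 0.0506). Differences below 0 were those of Cox5a (-0.30), Cox7a2 (-0.16), Cox6b1 (-0.05) and Cox7a1 (-0.47), all on chromosome 7 or 9 and none called.

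Among the 17 nuclear members of the ATP synthase, 16 had a positive difference and 3 were called higher, with 0 lower and a median of 0.15. Over all tested genes 6116 of 11500 had a positive difference, 5.34% were called higher and 8.04% lower. Atp5g2, 1 of 3 genes for the c subunit of the rotating membrane ring, had 431, 445 and 459 FPKM in the GFP-Rgnef libraries, against 318, 333 and 365 FPKM in the knockout libraries. Every GFP-Rgnef library was above every knockout library, and the mean with GFP-Rgnef was 131% of the knockout mean, a difference of 0.40 (SE 0.0676, limma adjusted p = 0.00853). It was the member called in all 6 fits that left out 1 library, with limma adjusted p from 0.00694 to 0.0443, and Ndufb7 was called in 5 of the 6. Atp5h and Atp5o both belong to the peripheral stalk that keeps the catalytic head from turning. Atp5h had 227, 231 and 229 FPKM with GFP-Rgnef, against 167, 193 and 198 FPKM in the knockout, a difference of 0.30 (limma adjusted p = 0.0323). Atp5o had 122, 124 and 121 FPKM with GFP-Rgnef, against 101, 104 and 100.3 FPKM in the knockout, a difference of 0.27 (limma adjusted p = 0.0185). The GFP-Rgnef values of each were nearly equal among themselves and above all knockout values. With 1 library left out, Atp5h was called in 1 of 6 fits and Atp5o in 2 of 6. Atp5b and Atp5a1, which build the catalytic head, were the most abundant. Atp5b had 2487, 2465 and 2392 FPKM with GFP-Rgnef, against 2297, 2357 and 2257 FPKM in the knockout, a difference of 0.09 that was not called although the groups did not overlap. Atp5a1 averaged 551 ± 30.4 FPKM with GFP-Rgnef and 514 ± 15.4 FPKM in the knockout (SD, n = 3 each), with overlapping groups and a difference of 0.10.

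**Figure D2:**
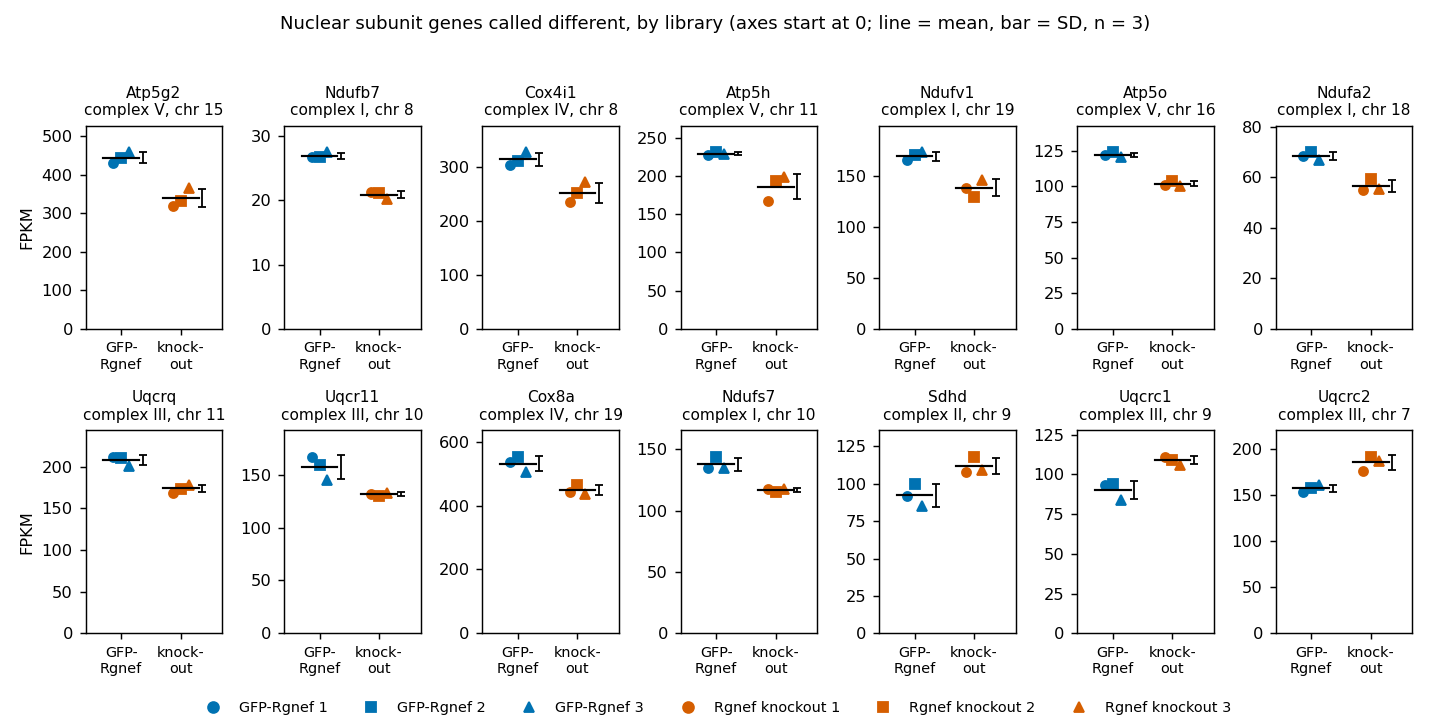
FPKM in each library (points) of the 14 nuclear subunit genes called by limma, with the group mean (line) and SD (bar, n = 3); GFP-Rgnef in blue, knockout in orange. The 11 genes called higher come before Sdhd, Uqcrc1 and Uqcrc2, and in all 14 the libraries of the groups do not overlap.

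Reads of the called genes were plentiful, from 530 reads for Ndufa2 in knockout 3 to 5075 reads for Atp5g2 in GFP-Rgnef 3. Sequences close to a member elsewhere in the annotation can divert reads, and 21 nuclear members had a copy of at least 95% identity over at least 200 bases. Of the called genes these were Atp5g2, Atp5h and Atp5o, and their copies reached at most 1.16% of the member's level. Gm10175, on chromosome 7, is 100% identical to Atp5g2 over 645 of 731 bases. How reads that match both equally well were treated is not given in the sources used here. The low level of a copy therefore does not show how many reads of the member were diverted or lost. Cox4i1 shares 154 exon bases with Emc8 on the other strand, which stood at 11.7% of its level, and Ndufa2 shares 66 exon bases with Tmco6, at 4.55% of its level. The sources used here do not say whether strand was used in counting, so reads from these stretches cannot be assigned.

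Where a subunit has alternative genes, the cells used the widely expressed form in both groups. Cox4i1 averaged 314 FPKM with GFP-Rgnef and 252 FPKM in the knockout, whereas Cox4i2, its form in lung and in low oxygen, had 0 to 2 reads in any library. The forms typical of heart and skeletal muscle were near 0 beside their partners. Cox6a2 reached 0.088 FPKM in its highest library and Cox8b 0.16 FPKM, and Cox8c, a testis form, was at 0 in all libraries. Cox7a1, the muscle form of another subunit, was the exception in being measurable, with 1.78, 2.25 and 1.27 FPKM in the GFP-Rgnef libraries and 4.43, 1.74 and 2.63 FPKM in the knockout libraries. These groups overlapped, on 8 to 13 reads with GFP-Rgnef and 11 to 29 reads in the knockout, and the difference of -0.47 was not called (limma adjusted p = 0.259). Its partner Cox7a2 averaged 90.1 FPKM with GFP-Rgnef and 101 FPKM in the knockout, and Cox7a2l, a related factor of supercomplex assembly, 86.5 FPKM with GFP-Rgnef and 77.3 FPKM in the knockout. Cox6b1 averaged 205 FPKM with GFP-Rgnef and 211 FPKM in the knockout, against at most 0.606 FPKM in any library for the testis form Cox6b2. Cox7b averaged 143 FPKM with GFP-Rgnef and 142 FPKM in the knockout, and Cox7b2 at most 0.205 FPKM in any library. Ndufa4l2, which in other cells is induced by low oxygen, had 0 reads in the GFP-Rgnef libraries and at most 2 in a knockout library.

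The genes for the c subunit, Atp5g1, Atp5g2 and Atp5g3, encode different import sequences but the same mature protein. Atp5g3 averaged 448 ± 19.6 FPKM with GFP-Rgnef and 388 ± 24.6 FPKM in the knockout (SD, n = 3 each), and its difference of 0.21 was not called (limma adjusted p = 0.084). Atp5g1 was the lowest, with 47.7 ± 3.78 FPKM with GFP-Rgnef and 42.8 ± 0.692 FPKM in the knockout, a difference of 0.15 (limma adjusted p = 0.232). All 3 genes had every GFP-Rgnef library above every knockout library. In the GFP-Rgnef cells Atp5g2 and Atp5g3 stood at about the same level per length, within the spread of the libraries, while in the knockout cells Atp5g2, at 339 ± 23.6 FPKM, was below Atp5g3 in its mean. The knockout libraries ran from 318 to 365 FPKM for Atp5g2 and from 364 to 413 FPKM for Atp5g3.

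The position of a nuclear member in the genome went with its sign. All 10 tested members on chromosomes 7 and 9 had a negative difference, with a median of -0.25, and 3 of them were called lower. On the other chromosomes 65 of 67 had a positive difference, with a median of 0.17, and 11 were called higher and 0 lower. The members on chromosomes 7 and 9 were Ndufa3, Ndufc2, Uqcrc2, Cox6b1 and Cox7a1 on chromosome 7 and Sdhd, Uqcrc1, Cox5a, Cox7a2 and Atp5l on chromosome 9. All tested genes on these chromosomes were shifted likewise, with a median of -0.24 on chromosome 7 and -0.28 on chromosome 9, against 0.04 on the other chromosomes. On chromosome 7, 28.8% of tested genes were called lower, and on chromosome 9 this was 36.6%, against 4.53% elsewhere. Differences were negative for 721 of all 819 tested genes on chromosome 7 and for 576 of 639 on chromosome 9. On the other chromosomes 5955 of 10042 tested genes had a positive difference, and 5.96% were called higher.

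Set beside the median of all tested genes on its own chromosome, 71 of the 77 nuclear members were above it, by a median of 0.12. On chromosomes 7 and 9 it was 7 of 10, by a median of 0.01, with a range of -0.22 to 0.20, and elsewhere 64 of 67, by a median of 0.12. With each chromosome's median deviation removed from each library before the fit, the differences of Sdhd, Uqcrc1 and Uqcrc2 were 0.01, 0.03 and 0.02 and none was called. That fit called 3 nuclear members higher, namely Atp5g2 at 0.35 (limma adjusted p = 0.0241), Ndufb7 at 0.28 (limma adjusted p = 0.0404) and Ndufa2 at 0.27 (limma adjusted p = 0.0377). It called 388 of all 11500 tested genes higher, so the count of 3 among the 77 members is near the background. The 3 genes called lower thus moved as much as the chromosomes they lie on. What underlies the shift of these chromosomes was not tested.

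**Figure D3:**
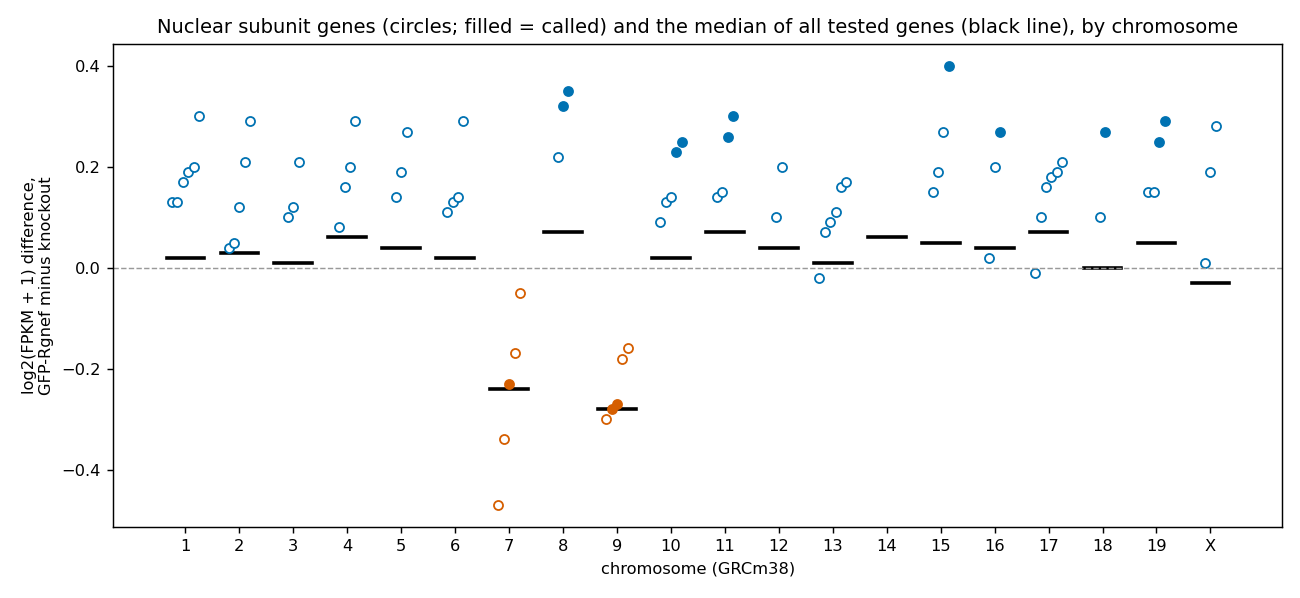
Difference in log2(FPKM + 1), GFP-Rgnef minus knockout, of the tested nuclear subunit genes (circles, filled where called) by chromosome (x axis), with the median of all tested genes of that chromosome (black line). Members lie above their chromosome's line on most chromosomes, and on chromosomes 7 and 9, whose lines are at -0.24 and -0.28, they lie around it.

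The mitochondrial genome is transcribed as long precursors that are cut into single transcripts, so its subunit genes on the same strand share their promoters. None of the 12 tested mitochondrial members was called by limma, where 5.34% of all tested genes were called higher and 8.04% lower. Of the 12, 1 had an unadjusted p below 0.05, and voom, a related test on recovered reads, called 1 at adjusted p below 0.05. The median difference was 0.10, and 10 of the 12 were positive, where 6116 of all 11500 tested genes were. These 12 include mt-Co2, mt-Co3, mt-Atp6 and mt-Nd3, whose values, as set out below, say little about their transcripts. In 3 of the 12, namely mt-Co1, mt-Nd2 and mt-Cytb, the GFP-Rgnef libraries all lay above the knockout libraries, near the 16.7% of all tested genes. In mt-Nd2 and mt-Cytb the closest libraries of the groups were almost equal. The unadjusted p below 0.05 and the voom call were both those of mt-Co1, the catalytic core of complex IV and the most abundant mitochondrial member. It had 3191, 3273 and 2888 FPKM in the GFP-Rgnef libraries, against 2671, 2521 and 1969 FPKM in the knockout libraries. The groups did not overlap, the difference of 0.40 (SE 0.115) was as large as that of Atp5g2, and it missed the threshold (limma adjusted p = 0.0571, and 0.0443 by voom). In both groups the library numbered 3 was the lowest for this gene. Without those libraries of both groups mt-Co1 was called, with a difference of 0.32 (limma adjusted p = 0.00805).

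The other abundant mitochondrial members differed less. mt-Nd1 of complex I had 2226, 2307 and 2587 FPKM with GFP-Rgnef, against 1965, 2049 and 2275 FPKM in the knockout, with overlap and a difference of 0.18. mt-Nd2 had 841, 863 and 1017 FPKM with GFP-Rgnef, against 804, 836 and 841 FPKM in the knockout, a difference of 0.13. mt-Cytb, the core of complex III that the mitochondrion encodes, had 805, 874 and 1046 FPKM with GFP-Rgnef, against 804, 786 and 778 FPKM in the knockout, a difference of 0.19. In these 3 genes GFP-Rgnef 3 was the highest library, and the knockout libraries lay close together in mt-Nd2 and mt-Cytb. mt-Nd4 averaged 324 ± 43.1 FPKM with GFP-Rgnef and 305 ± 3.75 FPKM in the knockout, and mt-Nd5 473 ± 19.4 FPKM with GFP-Rgnef and 458 ± 27.4 FPKM in the knockout (SD, n = 3 each). mt-Nd6, the only one of these genes on the other DNA strand, averaged 410.5 ± 20.1 FPKM with GFP-Rgnef and 428 ± 13.1 FPKM in the knockout, a difference of -0.06. The groups overlapped in all 3. Reads of the mitochondrial members made up 1.03%, 1.07% and 1.09% of the GFP-Rgnef libraries, against 0.93%, 0.91% and 0.84% of the knockout libraries, without overlap. Much of this separation rested on mt-Co1, with 83890, 80388 and 77079 reads with GFP-Rgnef and 74176, 67789 and 50927 in the knockout. All mitochondrial members together had 175308, 169437 and 187587 reads with GFP-Rgnef, against 167226, 158367 and 141394 in the knockout.

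**Figure D4:**
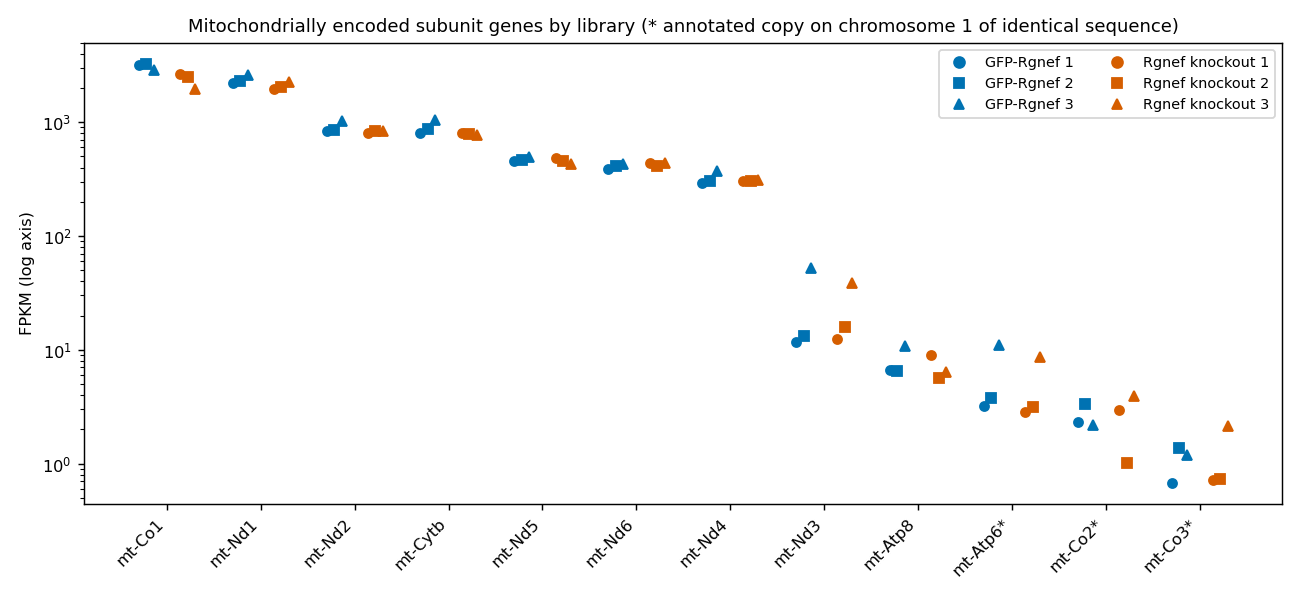
FPKM on a log axis of the 12 tested mitochondrial members in each library, with GFP-Rgnef in blue left of the knockout in orange and a symbol for each replicate number. There are 7 genes at 292 to 3273 FPKM, and mt-Nd3, mt-Atp8 and the genes with an identical annotated copy on chromosome 1 (asterisks) lie far below, with the libraries numbered 3 high for mt-Nd3 and mt-Atp6.

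Of the 13 mitochondrial members 7 stood at 292 to 3273 FPKM and the rest far below. The low ones include the genes for which the annotation holds a nuclear copy of identical sequence, an insertion of mitochondrial DNA on chromosome 1. mt-Co2, mt-Co3, mt-Atp6 and mt-Nd4l are 100% identical, over all their aligned bases, to the annotated pseudogenes Gm28661, Gm28437, Gm10925 and Gm10222. Their levels ran from 0 to 11 FPKM in single libraries, and mt-Nd4l had 1 read in all 6 libraries together and was not tested. Reads that match the mitochondrion and chromosome 1 equally well cannot be assigned to either, so these values say little about the transcripts of these genes, and how the authors treated such reads is not given in the sources used here. mt-Nd4 matches its copy Gm28439 at 100% over 876 of 1378 bases. mt-Co1 matches Gm29216 on chromosome 1 at 99.79% over 483 of 1545 bases, and Gm13340 on chromosome 2 at 97.61% over all 1545. mt-Atp8, a short ATP synthase gene that overlaps mt-Atp6 by 43 bases, had 6.63, 6.47 and 10.8 FPKM with GFP-Rgnef, against 9, 5.63 and 6.44 FPKM in the knockout.

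mt-Nd3 shows how little separates a member from its copy. It differs from Gm28438, in the 345 bases that align, by the single substitution T3C, where positions count from the start of mt-Nd3 and the base of mt-Nd3 is given before that of the copy. The starts of the annotated transcripts, bases 1 to 33 with the substitution in capitals, are shown for that reason.
mt-Nd3: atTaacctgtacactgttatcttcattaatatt
Gm28438: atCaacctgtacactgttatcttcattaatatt
mt-Nd3 had 11.7, 13.2 and 52.2 FPKM in the GFP-Rgnef libraries, against 12.5, 15.7 and 38.6 FPKM in the knockout libraries. In both groups the library numbered 3 was by far the highest, and the difference of 0.03 (SE 0.574) carried no call. Without the libraries numbered 3 it was -0.16. The copy Gm28438 had 24.2, 26.6 and 36.1 FPKM with GFP-Rgnef, against 31.9, 25.5 and 31.9 FPKM in the knockout. Its mean of 29.4 FPKM over all libraries was above the 24 FPKM of mt-Nd3. Reads that miss the substitution match both, so the values of mt-Nd3 say little about its transcript.

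The libraries numbered 3 also differed in the nuclear members, by the length of the transcript. For the 30 tested nuclear members with a length under 600 bases, as implied by the FPKM steps, library 3 exceeded the mean of the other libraries of its group, with a median excess of 0.11 in the GFP-Rgnef cells and 0.13 in the knockout cells. For the 47 longer members these medians were -0.00 with GFP-Rgnef and 0.03 in the knockout, and for all 496 tested genes under 600 bases they were 0.10 with GFP-Rgnef and 0.12 in the knockout. The median difference between the groups was 0.15 in the shorter members, with 4 called higher and 0 lower, and 0.15 in the longer ones, with 7 called higher and 3 lower. Over all tested genes it was 0.08 in the 496 shorter ones, with 26 called higher and 12 lower, and 0.01 in the 11004 longer ones, with 588 called higher and 913 lower. Cox7c, a short complex IV gene, shows the pattern, with 331, 347 and 477 FPKM in the GFP-Rgnef libraries and 284, 323 and 433 FPKM in the knockout libraries. Within each group its highest library was number 3, and its difference of 0.16 was not called (limma adjusted p = 0.636).

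Nuclear subunit genes are known for promoters that bind NRF1, ETS factors of the GABP type and YY1. RefSeq promoter windows on GRCm38.p6, from 250 bases before to 50 after the start of a gene, were matched by symbol for 66 of the 84 nuclear members. The letters CGCANGCG, the core of the NRF1 motif, were found on either strand in 37.9% of these, against 9.22% of all 27025 genes of the promoter table and 20.9% of the 8534 tested protein-coding genes in it. AAGATGGC, for YY1, was found in 13.6% of the members, against 3.19% of all genes and 5.88% of tested ones, and CCGGAAGT, for ETS factors, in 7.58% of the members, against 4.31% of all genes and 10.2% of tested ones. Of the 8 genes called higher that had a window, 4 held the NRF1 letters, 3 the ETS letters and 1 the YY1 letters, and both genes called lower that had a window held the NRF1 letters. In the stretches printed for called genes no motif overlapped another. A match is a description of the letters and does not show that the factor binds there.

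Stretches before the RefSeq start are printed for called genes in which a motif lies wholly before it, 5′ to 3′ on the strand of the gene, with the motifs in capitals, so that the c subunit gene with the lowest p can be read beside a stalk subunit, a complex III gene and a gene that was called lower. For Atp5g2 this is chr15:102671061-102671108 on the minus strand, with the NRF1 letters starting 41 bases before the gene's start. For Atp5h it is chr11:115419931-115420079 on the minus strand, with the NRF1 letters 140 bases and the ETS letters, on the opposite strand, 39 bases before the start. For Uqcr11 it is chr10:80406860-80406907 on the minus strand, with the ETS letters 66 bases before the start, and NRF1 letters that run across the start are not printed. For Sdhd it is chr9:50603900-50603947 on the minus strand, with the NRF1 letters 78 bases before the start.
Atp5g2: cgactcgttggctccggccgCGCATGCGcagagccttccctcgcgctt
Atp5h: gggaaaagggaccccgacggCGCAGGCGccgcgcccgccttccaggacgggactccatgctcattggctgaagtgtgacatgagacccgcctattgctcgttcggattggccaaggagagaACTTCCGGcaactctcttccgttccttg
Uqcr11: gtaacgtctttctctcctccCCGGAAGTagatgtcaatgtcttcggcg
Sdhd: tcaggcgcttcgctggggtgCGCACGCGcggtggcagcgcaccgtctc
Atp5g2, called higher, and Sdhd, called lower, thus both carry a match to the NRF1 core before their starts.

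The genes of the factors behind these motifs were measured too. Of 11 tested regulators of mitochondrial biogenesis 0 were called in either direction by limma, where 5.34% of all tested genes were called higher and 8.04% lower, so that a count of 0 among 11 is near the background. Of the 11, 1 had an unadjusted p below 0.05, and the median difference was -0.02. Nrf1 averaged 38.5 FPKM with GFP-Rgnef and 37.4 FPKM in the knockout, Gabpa 53.9 FPKM with GFP-Rgnef and 54.5 FPKM in the knockout, and Yy1 55.7 FPKM with GFP-Rgnef and 56.5 FPKM in the knockout. The coactivator gene Ppargc1a was under the filter, at 0.248, 0.507 and 0.555 FPKM with GFP-Rgnef and 0.598, 0.419 and 0.596 FPKM in the knockout. Pprc1, a relative of this coactivator, had a difference of 0.16 and was not called. Myc, a transcription factor that also acts on mitochondrial genes, had 123, 124 and 115 FPKM with GFP-Rgnef, against 88.3, 82 and 112 FPKM in the knockout. The groups did not overlap, and the difference of 0.36 missed the threshold (limma adjusted p = 0.07).

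The genes that serve the chain without being its subunits were read against the same shares of all tested genes, 5.34% called higher and 8.04% called lower, and counts this small in lists of this size are a description and no result about the lists. Of 44 tested assembly factors 1 was called higher and 0 lower, with a median difference of 0.07. The one called was Uqcc1, a factor of complex III assembly, with 45.3, 47.3 and 48.2 FPKM in the GFP-Rgnef libraries and 37.7, 40.8 and 39.8 FPKM in the knockout libraries, a difference of 0.25 (limma adjusted p = 0.0438). This call was lost with TPM scaling, without limma's trend, after chromosome centring, with chromosomes 7 and 9 left out, without the libraries numbered 3, and in all 6 fits that left out 1 library. Of 25 tested genes of mitochondrial transcription and RNA handling 1 was called higher and 0 lower, with a median of 0.07. This was Supv3l1, a helicase of mitochondrial RNA turnover, with 38.7, 39.4 and 37.4 FPKM with GFP-Rgnef and 31.8, 32.3 and 29.2 FPKM in the knockout, a difference of 0.30 (limma adjusted p = 0.0261), not called in 5 of the 6 fits that left out 1 library. Tfam and Polrmt, which start mitochondrial transcription, had differences of 0.16 and 0.15 and were not called. Among 7 tested carriers of adenine nucleotides, phosphate and ions 0 were called by limma, 2 had an unadjusted p below 0.05, and the median was 0.04. The differences between these lists were not tested.

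Finally, 5 genes of the chain carry symbols outside the rule. Atpif1, the inhibitor that keeps the ATP synthase from running backwards, had 34.5, 38.7 and 38.6 FPKM in the GFP-Rgnef libraries, against 23.9, 29.2 and 28.8 FPKM in the knockout libraries. It was higher in every GFP-Rgnef library, and its difference of 0.44 (SE 0.0948, limma adjusted p = 0.0212) was above that of every nuclear member. The call was lost after chromosome centring and without GFP-Rgnef 2 or knockout 1. Ndufab1, the acyl carrier protein within complex I, lies on chromosome 7 and had 74.1, 74 and 85.8 FPKM with GFP-Rgnef, against 90.4, 99.8 and 109.7 FPKM in the knockout. It was lower in every GFP-Rgnef library, with a difference of -0.35 (limma adjusted p = 0.0401), in the direction of most tested genes of its chromosome. This call was lost after chromosome centring, without a filter, without limma's trend, and when GFP-Rgnef 1 or 2, or knockout 2 or 3, was left out. Cyc1 and Cycs, the cytochromes that carry electrons in and after complex III, had differences of 0.15 and 0.01, and Usmg5, a small ATP synthase subunit, 0.17, none of them called.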

How the data were processed

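Poly-T selected RNA of 6 libraries was sequenced on an Illumina HiSeq instrument, and the labels gave each library its group and number. The authors deposited FPKM values per Ensembl gene. The submitters' processing notes name CASAVA 1.8, TopHat2 2.0.9, DESeq2 and build mm10; the annotation, the counter and the use of strand are not given in the sources used here. Gene symbols came from GENCODE mouse release M 21, which named 34490 identifiers. For all 19655 genes above 0, a length made the values whole reads within 0.02 (the annotated exon length for 4228, the smallest such length for the rest), and the reads summed to 99.77% to 99.85% of the implied depth. Lengths differ from the exon union in many genes, which limits comparisons of level between genes.

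The test was limma 3.58.1 with trend (R 4.3.3) on log2(FPKM + 1), mean FPKM at least 0.5, Benjamini-Hochberg over 11500 genes, two-sided. It was tried on simulated counts with the same dispersion for all genes and without chromosome shifts. There 65.67% of genes changed by 1.5 fold and 0.18% of unchanged genes were called. Changes as small as the nuclear members' median fold of 1.11 were not simulated. Named were all mitochondrial members, in each complex the called nuclear members and the 2 of highest mean, alternative isoforms, and called genes of the other lists; any further gene was chosen after its values were seen. Members and lists were chosen with earlier results of these data known. Copies were sought with blastn 2.17.0 among GENCODE transcripts. Alternatives covered pseudocount, filter, scaling, variance model, replicate block, chromosome shifts, recovered reads and each library left out; leaving out the libraries numbered 3 was added after seeing the data. Python 3.11.15 with numpy 2.4.6, pandas 2.3.3 and matplotlib 3.10.9 was used.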

Additional observations from a re-analysis of the deposited data

How the results depend on the processing

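Nuclear members called higher (11) and lower (3) numbered 7 and 1 without a filter, 6 and 0 without limma's trend, 3 and 0 after chromosome centring, 24 and 4 without the libraries numbered 3, and from 1 to 11 and from 0 to 2 with 1 library left out; 0 were lower with chromosomes 7 and 9 left out. The median of 0.15 stayed between 0.12 and 0.18 in all 20 fits. Over all tested genes 394 were higher without a filter, 388 higher and 494 lower after centring, 393 lower without chromosomes 7 and 9, 1048 higher without the libraries numbered 3, and 198 to 578 higher and 455 to 850 lower with 1 library left out; their median was 0.00 without a filter or after centring, -0.01 with TPM scaling and 0.04 without chromosomes 7 and 9. Of the mitochondrial members 1 was called higher by voom, without knockout 1, or without the libraries numbered 3. Medians of complexes II and IV were 0.13 and 0.22 without chromosomes 7 and 9, that of complex III 0.10 after centring and that of complex IV 0.01 without a filter; with 1 library left out complex III ranged from 0.09 to 0.19, complex IV from 0.09 to 0.19 and the biogenesis regulators from -0.02 to 0.06. Mitochondrial gene expression had 0.02 after centring and the regulators 0.05 without the libraries numbered 3. After centring Sdhd, Uqcrc1 and Uqcrc2 turned to 0.01, 0.03 and 0.02. Without the libraries numbered 3, mt-Nd3, mt-Nd4, mt-Nd5, mt-Co3 and mt-Atp8 turned to -0.16, -0.02, -0.03, 0.21 and -0.11. With 1 library left out the ranges that crossed 0 were -0.63 to 0.50 for mt-Nd3, -0.03 to 0.14 for mt-Nd4, -0.30 to 0.35 for mt-Co2, -0.18 to 0.25 for mt-Co3, -0.26 to 0.64 for mt-Atp6 and -0.07 to 0.32 for mt-Atp8, and the mitochondrial median ran from -0.01 to 0.21. The cause was not tested. In the fit with replicate number as a block, 28 nuclear members were higher and 5 lower, 2 mitochondrial members were higher, and over all genes 1253 were higher and 1517 lower; deviations of same-numbered libraries correlated at 0.321, -0.0199 and 0.552 for numbers 1 to 3, so the numbers were not taken as pairs. Counting error limits members with few reads, such as mt-Co3 with 9 to 28 reads.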
